A study of Rattus norvegicus with 4 samples.

Results

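A set of 8 genes of lipid mediator, nitric oxide and arginine metabolism was followed in NR8383 cells, an alveolar macrophage line from rat lung lavage. They encode the cyclooxygenases Ptgs1 and Ptgs2, the prostaglandin E synthase Ptges, the leukotriene enzymes Alox5 and Lta4h with the 5-lipoxygenase activating protein Alox5ap, the inducible nitric oxide synthase Nos2 and the arginase Arg1. Genes were chosen by name for these roles, with earlier results of these data known, and were found on the arrays through the RefSeq or Ensembl accession of each probe. All 8 were measured, by 10 probes on 21 spots, among 16579 measured genes. The 4 arrays form 1 group of biological replicates, cells seeded for 48 h and exposed for 4 h to the COOH-functionalized carbon nanotubes NRCWE042 at 6.8 cm2/cm2, after 20 passages. Whether the replicates came from separate cultures is not stated in the labels, so the spread between them may be partly technical. NR8383 is 1 established line, so the values describe it and not lung macrophages of animals. Unexposed cells were not analysed here, so the values below are levels in exposed cells and no effect of the nanotubes was measured.

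Macrophages release arachidonic acid from membrane lipids and turn it into prostaglandins through the cyclooxygenases, or into leukotrienes through 5-lipoxygenase, which works together with its activating protein at the nuclear membrane. Ptgs1 is the cyclooxygenase that most tissues express without stimulation, while Ptgs2, Ptges and Nos2 are classic genes of the response to bacterial products and cytokines. Nos2 and Arg1 use the same substrate, arginine: Nos2 makes nitric oxide and citrulline from it, and Arg1 makes urea and ornithine, the precursor of polyamines and proline.

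The leukotriene genes, the cyclooxygenase gene Ptgs1 and the arginase gene Arg1 were read well above background on every array, and the inducible genes Ptgs2 and Ptges on none. Nos2 was at the limit of detection, with 1 of its 2 probes marked on 3 of 4 arrays. Detected here means that at least 1 probe carried the scanner software's mark "well above background" on all 4 arrays, as held for 5 of the 8 genes (62.5%), beside 44.4% of all measured genes. By the software's looser mark, a positive and significant signal, Nos2 joined them, which made 6 of 8 beside 55.4% of all genes. A probe without the mark "well above background" leaves it unknown whether its gene was transcribed.

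The array of replicate 4 was the dimmest. The 75th percentile of the signal over sample probes was 128, 131, 98.5 and 49.0 intensity units on replicates 1 to 4, and 38.8%, 36.8%, 35.2% and 31.1% of the probes were well above background. Relative to replicate 1, that percentile differed by 0.03, -0.38 and -1.38 log2 units on replicates 2, 3 and 4. The spots of spike-in controls, RNA added at set amounts, differed by -0.08, 0.28 and -0.05 over the 248 that were well above background on all arrays. Over all 350 spike-in spots the differences were -0.03, 0.0005 and -0.23. Replicate 3 had a dim area at its centre, within spot rows 145 to 256 and spot columns 65 to 96, that held 4.23% of the sample spots. Of the listed macrophage markers, 8 of 9 were detected, and Msr1 was well above background on 3 arrays. Of 24 measured markers of neutrophils, mast cells, epithelium, fibroblasts and platelets, 3 were detected: the neutrophil marker Camp, the fibroblast marker Dcn and the platelet marker Gp9. No mast cell or epithelial marker was, Hdc being marked on 3 arrays and the others on none. In RNA from whole cultures, fewer cells that express a gene and less RNA per cell cannot be told apart.

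Levels are given as log2 of the processed signal minus the array's own 75th percentile over sample probes, so that 0 is a probe at that percentile. Since probes differ in affinity, a level sets a gene against its own values on the other arrays and not against another gene.

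**Figure D1:**
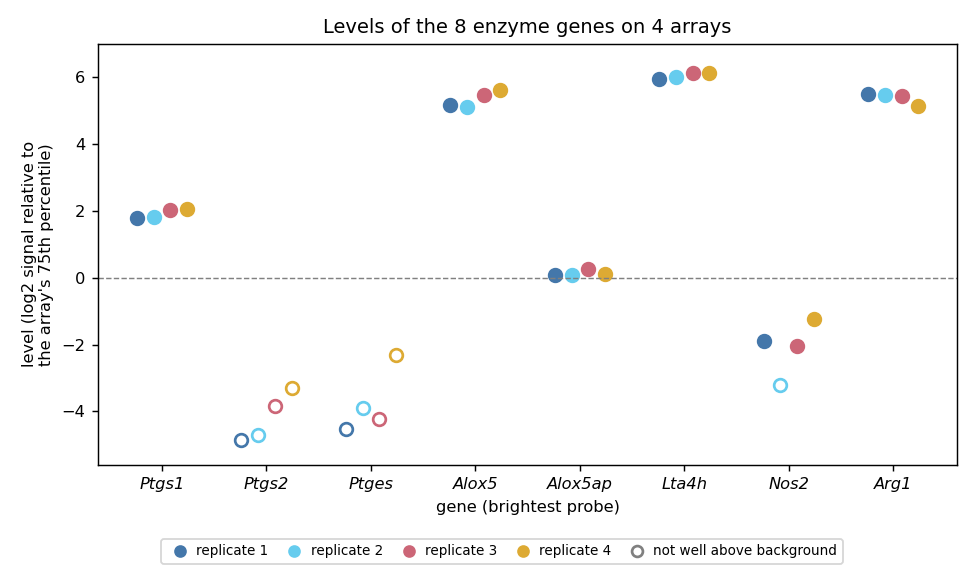
Level of each gene's brightest probe (vertical axis, log2 signal relative to the array's 75th percentile) on the 4 arrays of exposed cells (colours), with open circles where the probe was not well above background. Ptgs1, Alox5, Alox5ap, Lta4h and Arg1 are filled on all 4 arrays with ranges of 0.52 or less, while Ptgs2 and Ptges are open throughout and Nos2 is open on replicate 2.

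Of the cyclooxygenase genes, Ptgs1 was read at levels of 1.79, 1.81, 2.02 and 2.07 on replicates 1 to 4, a mean of 1.92 ± 0.14 (SD, n = 4). It read slightly higher on replicates 3 and 4 than on 1 and 2, with deviations from its own mean of -0.13, -0.11, 0.09 and 0.15. The median deviation over all 7363 detected genes ran the same way on this scale, at -0.07, -0.07, 0.06 and 0.10, and with array median or spike-in scaling Ptgs1 was lowest on replicate 4. The probe has 2 spots, whose SD within an array was between 0.03 and 0.10, beside 0.14 between replicates. A second Ptgs1 probe carried the mark "well above background" on 0 of 4 arrays, with levels of -3.55, -3.14, -4.15 and -2.85. It was positive and significant on all 4. The detection of Ptgs1 thus rested on 1 of its 2 probes.

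Ptgs2, the inducible isozyme, gave processed signals of 4.40, 4.97, 6.81 and 5.00 intensity units on replicates 1 to 4. The dimmest sample spot marked well above background on the same arrays had 21.7, 24.6, 23.2 and 20.8 units, so Ptgs2 lay at 0.20, 0.20, 0.29 and 0.24 of it. The levels were -4.86, -4.72, -3.85 and -3.29. The highest, on replicate 4, follows the array's percentile more than the signal: the dimmer an array, the higher a fixed low signal stands on this scale. The signal itself was highest on replicate 3. The only Ptgs2 spot lies in the dim area of replicate 3, in a block of spots whose median on replicate 3 was -0.58 log2 units relative to the other arrays. On replicate 4 the same block was at -0.26. The spot was not positive and significant on any of the 4 arrays, among them replicates 1 and 2, where this block was not low.

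The sequences upstream of the isozyme pair are shown because one was detected and the other was not, together with that of Alox5, the detected member with the widest spread. Each is the stretch of 250 bases before the transcription start, 5′ to 3′ on the gene's strand, from RefSeq (GRCr8 build), with capitals marking matches to 7 short motifs on both strands.
Ptgs1 (chr3:39981169-39981418, plus strand): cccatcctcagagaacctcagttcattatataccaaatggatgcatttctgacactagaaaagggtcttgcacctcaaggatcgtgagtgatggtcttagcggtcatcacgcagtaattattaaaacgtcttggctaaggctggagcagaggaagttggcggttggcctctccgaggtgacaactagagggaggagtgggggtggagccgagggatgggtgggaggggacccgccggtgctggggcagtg
Ptgs2 (chr13:64713813-64714062, plus strand): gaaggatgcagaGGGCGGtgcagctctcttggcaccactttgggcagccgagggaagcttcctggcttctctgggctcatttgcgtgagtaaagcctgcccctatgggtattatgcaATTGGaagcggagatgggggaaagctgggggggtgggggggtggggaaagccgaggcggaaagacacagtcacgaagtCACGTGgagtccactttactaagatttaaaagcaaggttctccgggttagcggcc
Alox5 (chr4:151251127-151251376, minus strand): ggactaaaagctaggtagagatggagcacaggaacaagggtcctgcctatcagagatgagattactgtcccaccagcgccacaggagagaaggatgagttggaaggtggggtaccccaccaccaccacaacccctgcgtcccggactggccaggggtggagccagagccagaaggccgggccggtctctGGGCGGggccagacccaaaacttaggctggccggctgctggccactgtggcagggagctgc
The motifs searched were the GC box (GGGCGG), the sequence CCAAT in the box of that name, the core promoter motif TATAAA, the E-box (CACGTG), the motif for AP-1 (TGANTCA), the cyclic AMP response motif (TGACG) and the motif for STAT factors (TTCNNNGAA), and no 2 matches overlapped. Such windows were present for 5 of the 8 genes, the others being Ptges and Lta4h. The Ptgs2 window held the E-box 55 to 50 bases before the start, a motif in 5.59% of the 33469 rat windows searched, a GC box at 238 to 233 (30.5% of windows) and a CCAAT box on the minus strand at 133 to 129 (34.0% of windows). The Ptgs1 window held none of the 7. A GC box was in the other 4 windows, 87 to 82 bases before the start of Ptges and on the minus strand of the Lta4h window, which also held CCAAT on both strands. The end of the Lta4h window lies inside the annotated gene, so no distances are given for it. The Alox5 window held 1 GC box, 61 to 56 bases before the start, and was richer in G and C (62.8%) than Ptgs2 (57.2%) and Ptgs1 (54.4%), beside a median of 51.2% over all windows. None of the 5 windows held the TATAAA motif (12.9% of windows), the AP-1 motif (6.34%), the cyclic AMP response motif (18.2%) or the STAT motif (7.67%). A match describes these letters and is no evidence that a factor binds there.

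Ptges, the microsomal synthase that works downstream of Ptgs2, gave signals of 5.56, 8.70, 5.20 and 9.78 intensity units, at 0.26, 0.35, 0.22 and 0.47 of the dimmest marked spot. Its levels were -4.52, -3.91, -4.24 and -2.33. The signal was positive and significant on replicates 2 and 4 and not on the others.

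Among the leukotriene genes, Alox5, the 5-lipoxygenase that starts leukotriene synthesis, was read at 5.18, 5.11, 5.46 and 5.63, a mean of 5.35 ± 0.25 (SD, n = 4). Replicates 3 and 4 were the high ones on this scale. Its 2 spots per array had an SD between 0.01 and 0.06, below the 0.25 between replicates. With the same spots, the order of the arrays depended on the scaling: with spike-in scaling Alox5 was lowest on replicate 4, at -0.57 relative to its own mean. With the array median it was lowest on replicate 1, at -0.18, beside -0.16 on replicate 4. With the normexp background correction it was lowest on replicate 2, at -0.14, beside -0.11 on replicate 4.

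Alox5ap, which presents arachidonic acid to the lipoxygenase, was read at 0.08, 0.07, 0.26 and 0.11, a mean of 0.13 ± 0.09 (SD, n = 4). Its signals of 135, 137, 118 and 53.1 intensity units were the dimmest among the detected members, at 2.55 times the dimmest marked spot on replicate 4 and 5.07 to 6.25 times on the other arrays. Of the 500 detected genes nearest to it in level, 4.6% had a smaller SD.

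Lta4h, the hydrolase that makes leukotriene B4, was read at 5.95, 6.02, 6.13 and 6.14, a mean of 6.06 ± 0.09 (SD, n = 4). Its probe is spotted 10 times on each array, which separates error within an array from the spread between replicates. Over the 9 spots that were used, the SD within an array was 0.05, 0.04, 0.08 and 0.05 on replicates 1 to 4. The spots of replicate 1 spanned 5.89 to 6.05 and those of replicate 4 spanned 6.07 to 6.22, so these arrays did not overlap on this scale, while the spots of replicates 3 and 4 did. The detected genes as a whole were shifted between replicates 1 and 4 in the same direction, with the median deviations given for Ptgs1, and scaling on the 75th percentile of detected probes put Lta4h at 1.91, 1.98, 2.00 and 1.95. Over the probes with 10 spots that were detected, 1016 to 1038 per array of 1350, the median SD between spots was 0.06, 0.05, 0.09 and 0.07.

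The tenth Lta4h spot lies in the dim area and was left out on all arrays because the software marked it as an outlier. It was read at 6.11 and 6.24 on replicates 1 and 2, 0.16 and 0.22 above the mean of the other spots, at 5.25 on replicate 3, a difference of -0.88, and at 5.83 on replicate 4, a difference of -0.31. Replicate 4 was thus low at this place as well. Over the 1128 sample spots of the area that were well above background on replicates 1 and 2, the median difference from those 2 arrays was -1.21 log2 units on replicate 3 and -0.47 on replicate 4, beside 0.01 and -0.03 over the 25188 spots outside.

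**Figure D2:**
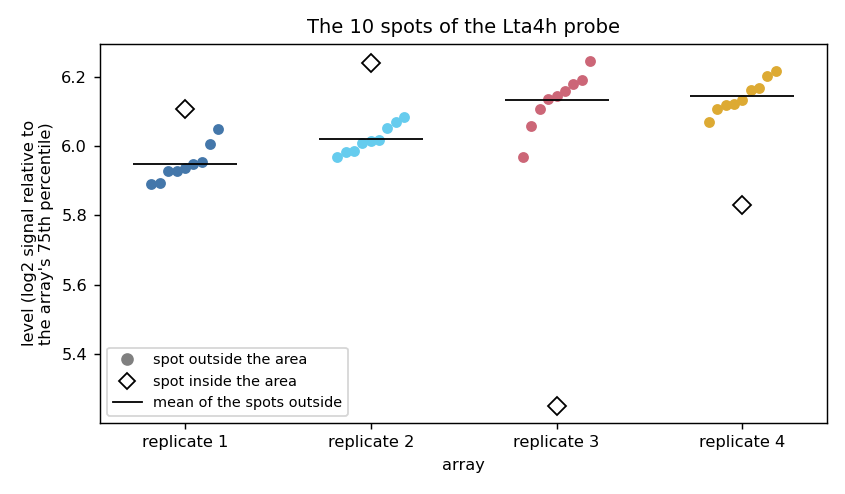
Level (log2 signal relative to the array's 75th percentile) of each of the 10 spots of the Lta4h probe on the 4 arrays; circles are the 9 spots outside the dim area, the bar is their mean and the diamond is the spot inside the area. The diamond lies above the mean on replicates 1 and 2 and below it on replicates 3 and 4, with differences of -0.88 and -0.31.

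**Figure D3:**
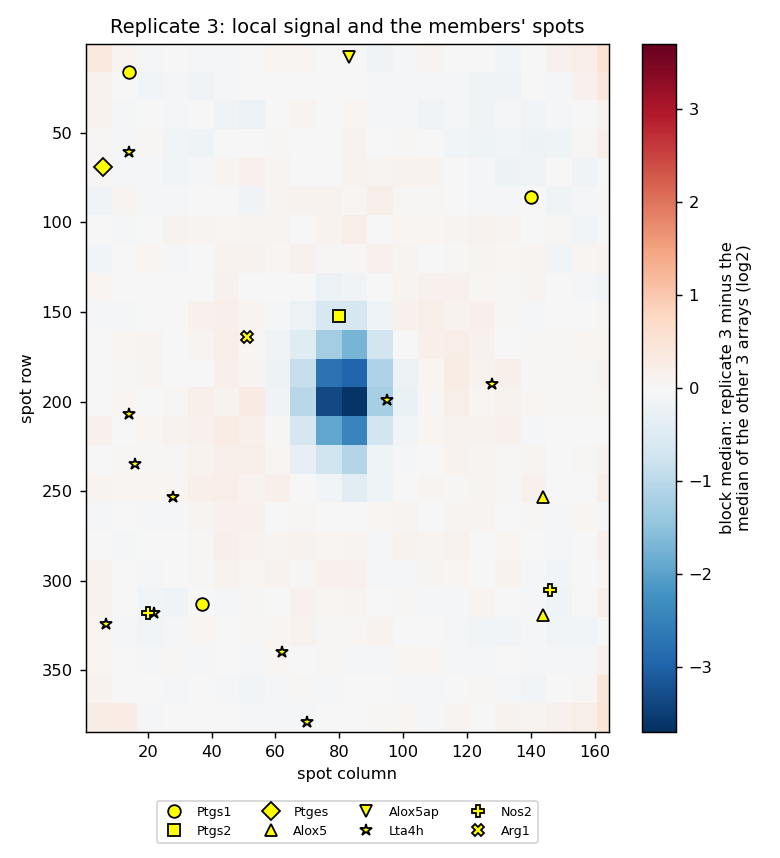
Spots of the 8 genes (yellow symbols) by spot row and spot column of the array, over the local signal of replicate 3, coloured by the median log2 difference from the other arrays in blocks of 16 rows by 8 columns. The dim area reaches -3.62 in its lowest block and holds the Ptgs2 spot and 1 of the 10 Lta4h spots.

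Nos2 was represented by 2 probes. The brighter one gave 34.5, 14.1, 24.0 and 20.8 intensity units on replicates 1 to 4 and was well above background on all but replicate 2. On replicate 4 its spot was itself the dimmest one that carried the mark, and on replicate 3 it lay 1.03 times over the dimmest one. On replicate 1 alone it was brighter than every unmarked sample spot, of which the brightest had 30.3, 32.1, 34.9 and 30.2 units. The levels of this probe were -1.89, -3.21, -2.04 and -1.24. The other Nos2 probe carried the mark on 0 arrays, with levels of -2.68, -3.59, -2.69 and -3.47, and was positive and significant on 3. Neither probe lies in the dim area.

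Arg1 was read at 5.49, 5.47, 5.43 and 5.13, a mean of 5.38 ± 0.17 (SD, n = 4). Replicate 4 was the low one, at -0.25 relative to the gene's own mean. The probe has 1 spot, outside the dim area, and the block of 16 spot rows by 8 columns around it read -0.21 relative to the other arrays on replicate 4, as the median over 57 spots. With each spot corrected for its block, a setting chosen after seeing the data, Arg1 read 5.45, 5.50, 5.29 and 5.31. Replicate 4 then lay at -0.08 from the mean. It stayed the lowest with quantile normalization (-0.37), the normexp background correction (-0.65), the array median (-0.70) and scaling on the spike-in spots well above background (-1.11). Arg2, the mitochondrial arginase, was well above background on 2 arrays.

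Alox5 and Arg1 differed unequally across the arrays. The log2 difference Alox5 minus Arg1 was -0.27, -0.33, 0.07 and 0.54 around its mean on replicates 1 to 4, a range of 0.87 log2 units or 1.82-fold. Among the pairs of members computed it had the widest range. The range was 0.55 for Lta4h minus Arg1, 0.48 for Alox5ap minus Alox5, 0.40 for Lta4h minus Alox5 and 0.27 for Ptgs1 minus Alox5. Alox5 and Arg1 are read on the same array, so a rescaling of whole arrays left their difference as it was. Of the settings that could alter it, quantile normalization gave a range of 0.87, the normexp background correction 1.07 and the block correction 0.60, and it was 0.40 without replicate 4. The directions of the single genes depended on the scaling: with spike-in scaling both were lowest on replicate 4. No labelled condition differs between these replicates, and the difference was not tested.

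The 5 detected members varied little between replicates. Their SDs were between 0.09 and 0.25 and their median SD was 0.14, beside a median of 0.25 over all 7363 detected genes. All 5 lay under that median. Of the 500 detected genes nearest in level, 54.4% had a smaller SD than Alox5, whose 0.245 exceeded their median of 0.222. For Arg1, Ptgs1, Lta4h and Alox5ap the shares were 35%, 25.2%, 20% and 4.6%. The members' median also lay under that of all detected genes in each of the 17 settings computed. But with scaling on the 248 spike-in spots the values were nearly equal, 0.588 for the members and 0.600 for all detected genes. With that scaling all 5 were lowest on replicate 4, from -0.57 (Alox5) to -1.11 (Arg1) relative to their own means.

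**Figure D4:**
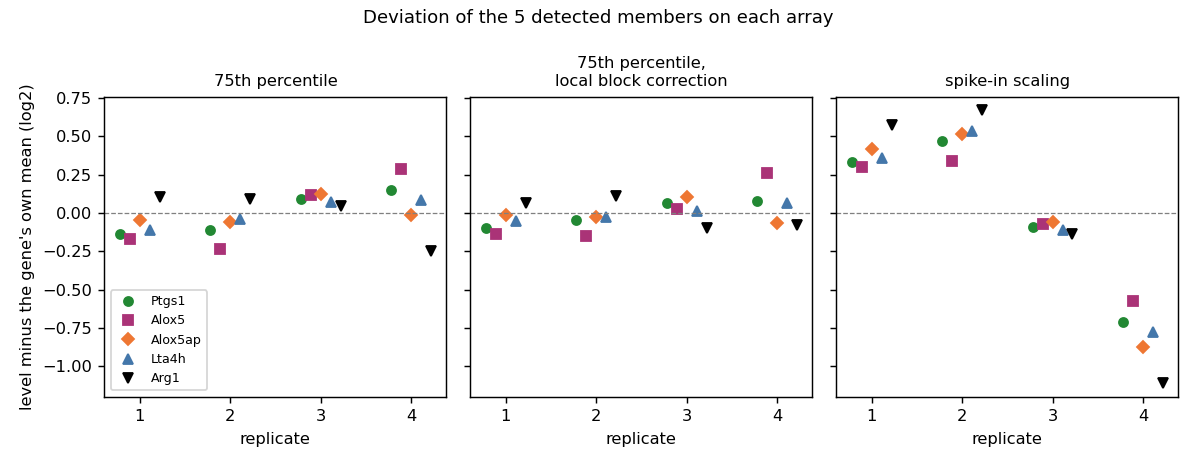
Deviation of the level from the mean of the same gene across arrays (log2) for the 5 detected members, under the 75th percentile scaling, the same with each spot corrected for its block, and spike-in scaling. Arg1 lies lowest on replicate 4 at -0.25 in the left panel and at -0.08 in the middle one, and all 5 genes are lowest on replicate 4 in the right panel, down to -1.11.

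The profile of a detected member over 4 arrays was shared by many genes. Between 752 (Arg1) and 1212 (Ptgs1) of the 7363 detected genes had a profile, centred on the gene's own mean, within a root mean square difference of 0.1 log2 units. The 2 nearest were Elovl1 and Atad3a for Alox5, Ldhb and Acly for Ptgs1, Nrf1 and Mbd2 for Lta4h, Ube2d2b and Eif1ad for Alox5ap, and Cops4 and Txk for Arg1, at differences between 0.00331 and 0.0183.

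Of 86 further genes of these pathways in 10 lists, 83 were measured and 45 were detected (54.2%, beside 44.4% of all measured genes), while 9 were well above background on 1 to 3 arrays and 29 on none. The median SD of the detected ones was 0.27.

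Upstream of the cyclooxygenases and 5-lipoxygenase, 6 of 9 genes of arachidonate release were detected. They included the cytosolic phospholipase gene Pla2g4a (-0.34 ± 0.34, SD, n = 4, as for the levels below) and Pla2g7 (6.23 ± 0.11), which degrades platelet-activating factor. Of the secreted phospholipase genes, Pla2g2d (3.71 ± 0.32) was detected, while Pla2g2a, Pla2g5 and Pla2g10 were well above background on no array. Downstream, 5 of 8 prostanoid synthesis genes were detected: the thromboxane synthase gene Tbxas1 (6.51 ± 0.28), the other prostaglandin E synthases Ptges2 (1.63 ± 0.23) and Ptges3 (5.82 ± 0.10), Prxl2b and the carbonyl reductase gene Cbr1. The prostacyclin synthase gene Ptgis and both prostaglandin D synthase genes, Ptgds and Hpgds, were well above background on no array. Thus, 2 of the 3 prostaglandin E synthase genes measured were detected and Ptges was not. The Ptges3 probe has a spot in the dim area, and so has the only Ptgds probe. Of 5 genes for prostaglandin breakdown and transport, Ptgr1 and Abcc4 were detected, and Hpgd, which inactivates prostaglandins, was not on any array.

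Among the 9 prostanoid receptor genes, those of the E2 receptor Ptger2 (2.63 ± 0.23) and the prostacyclin receptor Ptgir (0.76 ± 0.36) were detected. Ptger4, Ptgdr and Ptgdr2 were well above background on 3 arrays each and Ptger3 on 1. Of the 5 leukotriene and lipoxin receptor genes measured, 0 were detected: the leukotriene B4 receptor genes Ltb4r and Ltb4r2 and the cysteinyl leukotriene receptor genes Cysltr1 and Cysltr2 were well above background on no array, and Gpr17 on 3. Next to Alox5 and Lta4h, 4 of 12 further lipoxygenase and leukotriene enzyme genes were detected, among them Mgst2 (6.25 ± 0.25), whose product can form leukotriene C4, and the dipeptidase gene Dpep2 (1.82 ± 0.42). The leukotriene C4 synthase gene Ltc4s and the lipoxygenase genes Alox12 and Alox15 were below the mark on all 4 arrays.

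On the arginine side, 10 of 12 genes of nitric oxide synthesis and its cofactor were detected, and the exceptions were the other nitric oxide synthase genes, Nos1 and Nos3, on no array. Gch1 (5.51 ± 0.24), which limits the synthesis of tetrahydrobiopterin, and Qdpr (6.07 ± 0.16), which regenerates it, were among the detected ones. Of arginine supply and recycling, 3 of 4 genes were detected. The argininosuccinate lyase gene Asl (5.23 ± 0.31) was, and so were the transporter genes Slc7a2 and Slc7a7, while Ass1, which acts just before Asl in remaking arginine from citrulline, was well above background on no array. All 5 measured genes of nitric oxide sensing, the guanylate cyclase genes Gucy1a1, Gucy1a2 and Gucy1b1 with Prkg1 and Pde5a, were below the mark on all 4 arrays, the Gucy1a2 probe having a spot in the dim area. In the arginase and polyamine list, 13 of 14 genes were detected, Arg2 being the exception. They included Odc1 (3.95 ± 0.03), which turns ornithine into putrescine, and Oat (4.91 ± 0.12), which leads from ornithine to proline.

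**Figure D5:**
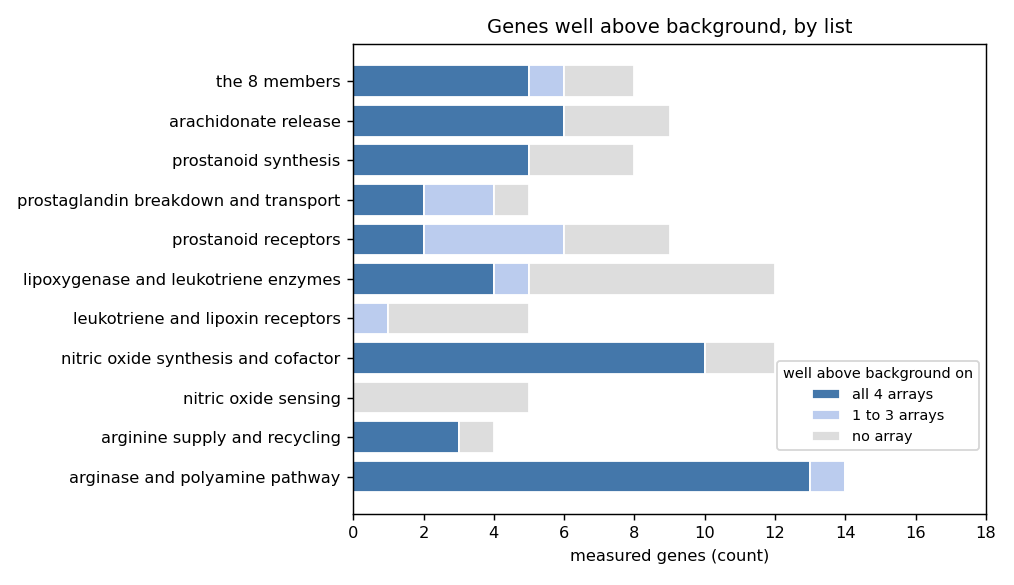
Number of measured genes (horizontal axis) in the 8 members and the 10 pathway lists (rows) that were well above background on all 4, on 1 to 3 or on no array. Detection ranges from 0 of 5 for nitric oxide sensing and for leukotriene and lipoxin receptors to 13 of 14 for the arginase and polyamine pathway.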

How the data were processed

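Gene expression was measured on 1-colour arrays, 1 for each of 4 replicates of exposed NR8383 cells. Per the file headers, each deposited file holds linear intensities per spot, made with Agilent Feature Extraction 11.0.1.1, background-corrected with spatial detrending within each array and not normalized between arrays. Other deposited columns used were the raw median intensities of spot and background, and the software's 0 or 1 marks per spot.

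Spots marked non-uniform or population outliers were left out, and log2 of the processed signal was averaged per probe and set against the 75th percentile among the array's 45598 sample probes. Accessions matched 21109 probes to genes of a RefSeq table (GRCr8 assembly; the headers name an older build, so only the upstream windows have coordinates). A gene took its brightest probe. No sample spot was saturated. A probe was detected on an array when over 50% of its spots were marked well above background. The dim area of replicate 3 joins blocks of 16 rows by 8 columns under -0.3 log2 units around the lowest one.

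Every member and any gene of the pathway lists could be named, with the 2 nearest profiles per detected member. Members and lists were chosen with earlier results of these data known. No comparison between groups was tested, since there is 1 group. Within it, Dixon's criterion marked arrays that stand apart. The series' design calls the replicates biological. Their number limits the precision, and arrays give no read depth. Alternatives covered background correction, scaling, outlier marks, probe and detection rules, the dim area and each replicate left out. The SD, area and profile steps were tested on simulated data. Tools were Python 3.11.15, numpy 2.4.6, pandas 2.3.3 and matplotlib 3.10.9, and R 4.3.3 with limma 3.58.1 for normexp (offset 50).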

Additional observations from a re-analysis of the deposited data

Results flagged for a closer look

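Of 53 genes examined (the 8 members and 45 detected pathway genes), 3 had 1 array apart from the others, where the gap to the nearest array exceeded Dixon's critical share of the gene's whole range. The nominal rate of this criterion by chance is about 1 in 20, and the count was near it. The share flagged over all detected genes was not computed. All genes were read on the same arrays, so their flags are not independent. For Arg1 the gap was 0.836 of the range with replicate 4 low (5.49, 5.47, 5.43 and 5.13). With each spot corrected for its block, a setting chosen after seeing the data, replicate 4 no longer lay lowest (5.45, 5.50, 5.29 and 5.31). It stayed the lowest with quantile normalization, the normexp background correction, the array median and spike-in scaling. For Gchfr, which encodes the feedback regulator of the cofactor enzyme Gch1, the gap was 0.918 with replicate 4 high (1.22, 1.25, 1.23 and 1.60). For Nosip, which encodes a protein that binds nitric oxide synthases, it was 0.855 with replicate 4 high (4.09, 4.00, 4.09 and 4.63). With the block correction replicate 4 was still the highest, at 1.57 for Gchfr and 4.66 for Nosip, as it was with quantile normalization. But with spike-in scaling it was the lowest for both (1.22, 1.36, 0.58 and 0.27 for Gchfr, and 4.09, 4.11, 3.43 and 3.29 for Nosip). It was the highest for neither gene with the array median or the normexp background correction. With normexp Gchfr had a range of 0.05, and Nosip read 3.66, 3.62, 3.07 and 3.31. Replicate 4 was also the dimmest array, and the part of this in the 3 results was not tested.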

How the results depend on the processing

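The 5 detected members were 4 when a gene needed all of its probes detected and 6 under the looser mark or at 3 of 4 arrays; leaving out 1 replicate gave 5 to 6, with Nos2 added without replicate 2. The 45 detected pathway genes were 38, 55 and 51 under those 3 rules and 45 to 50 with 1 replicate left out. The share over all measured genes, 44.4%, moved to 38.6%, 55.4% and 48.1% under those rules. With 1 replicate left out it was 44.5% to 47.7%. The median SD of the detected members, 0.14, became 0.083 with the 75th percentile taken over detected probes, 0.300 with the array median, 0.486 with scaling on the median signal of all 350 spike-in spots, 0.588 on the 248 well above background and 0.086 with the block correction, the last 2 settings having been chosen after seeing the data; without 1 replicate it was 0.104 to 0.170. All 5 detected members were lowest on replicate 4 under both spike-in scalings. Of 111 mean levels under alternatives, 77 stayed within 1 SD. The other 34 came with another zero of the scale (8 each for the array median and for detected probes, 5 for either spike-in scaling), with normexp (7) and, for Ptgs1 (-0.75), with the mean of both probes. Without the dim area Ptgs2 had no spot and got no value. No paired analysis was possible because the samples form 1 group. Signals under the dimmest marked spot, as for Ptgs2, Ptges and the second probes of Nos2 and Ptgs1, carry no order between arrays.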

Other observations

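Genes of polyamine metabolism downstream of Arg1 changed unequally across the replicates. They were singled out after their values were seen. Srm, which makes spermidine, was read at 5.15, 5.08, 6.02 and 6.48 on replicates 1 to 4, high on 3 and 4. Sat1, which acetylates polyamines for breakdown or export, was read at 4.77, 4.97, 4.39 and 4.07, and Sms, which makes spermine, at 3.14, 3.22, 2.70 and 2.56, both low on 3 and 4. With each spot corrected for its block, Srm read 5.17, 5.09, 5.95 and 6.44 and Sat1 4.76, 4.96, 4.26 and 4.15. The result for Srm depended on the scaling. With scaling on the 248 spike-in spots, a setting chosen after seeing the data, Srm was nearly level, at 5.15, 5.18, 5.36 and 5.15. On that scale Sat1 (4.77, 5.08, 3.74 and 2.74) and Sms (3.14, 3.33, 2.05 and 1.23) were again low on 3 and 4. With all 350 spike-in spots Srm read 5.15, 5.14, 5.64 and 5.33, still higher on 3 and 4. The array median also left Srm higher on them, at 8.71, 8.96, 9.77 and 9.62. Odc1 had a range of 0.08 log2 units on the main scale and 1.36 with scaling on the 248 spike-in spots.

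A pair of phospholipase genes also changed unequally. Pla2g4a, the cytosolic enzyme that releases arachidonic acid, was read at -0.15, 0.02, -0.48 and -0.75, low on replicates 3 and 4, and Pla2g6, a calcium-independent phospholipase, at 1.96, 2.00, 2.80 and 3.11, high on them. With scaling on the 248 spike-in spots Pla2g6 read 1.96, 2.11, 2.15 and 1.78, lowest on replicate 4. Pla2g4a then read -0.15, 0.13, -1.14 and -2.08. With all 350 spike-in spots Pla2g6 read 1.96, 2.06, 2.42 and 1.97, so that replicate 4 was level with replicate 1. With the normexp background correction Pla2g4a read -0.19, -0.02, -0.16 and -0.30, so that replicate 3 was not lower than replicate 1. Replicates 3 and 4 also had the dimmer arrays, and the part of that in these values was not tested.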
